A study of Mus musculus with 6 samples.

Results

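The 25519 regions described here are distal stretches of open chromatin that were called as ATAC-seq peaks in all 3 libraries of the series. A member is a peak of Foxr2 p53LOF replicate 1 on one of the 19 autosomes that overlaps, by 1 bp or more, a peak of Foxr2 alone replicate 1 and a peak of Foxr2 alone replicate 2, and that lies over 10 kb from the start range of every gene in the deposited feature list. Members were chosen by the peak calls of the authors in each library and by distance, and no class of nuclei was used. Peak calls rest on the ATAC reads of all nuclei of a library, so the rule is not independent of the counts below. They were 22.6% of the 112924 peaks of Foxr2 p53LOF and 42.4% of its 60162 distal autosomal peaks. Being called in 3 peak lists and lying far from gene starts were the rule of choice and are not findings. Described below are how the counts of these regions were spread over classes of nuclei, which genes lie nearest to them and which short sequences they hold.

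The libraries came from brain tissue of C57BL/6J mice, labelled brain tumor in every case although the study describes the lesions of Foxr2 alone as not proliferating, and were profiled with single-cell multiome, which reads RNA and open chromatin from the same nucleus. In utero electroporation delivered piggyBac vectors into neural stem cells of the ganglionic eminences, so every library carries Foxr2 overexpression driven by the broadly active CAG promoter, together with GFP and Akaluc. Foxr2 p53LOF also received Cas9 with a guide against p53, whereas Foxr2 alone did not carry the p53 loss of function. The tissue holds tumor or lesion cells and normal cells, and the age of the animals at collection was not given in the sources used here. Count matrices were used for replicate 1 of each genotype, so genotype, animal, library and sampled region cannot be told apart. Without replicates no test was made, and every interval printed is a 95% interval for counting error alone. Counts of Foxr2 alone replicate 2 were not analysed here, and that library enters only through its peak list.

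Distal open regions are where enhancers are found, stretches of DNA bound by transcription factors that act on genes over long distances. Enhancers are known to differ between cell types more than promoters do, and the factors that open them leave short recognisable sequence motifs: SOX10 in oligodendrocytes, NFI and SOX9 in astrocytes, PU.1 in microglia and macrophages. Other distal sites are bound by CTCF, which anchors chromatin loops and is open in most cell types.

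The sequences of 8 members are shown first, because each stands for a group of regions to which the values below refer. Each line gives 300 bases around the midpoint of a member on the + strand of mm10, read from the RefSeq genome of that build, and capitals mark matches to the motifs searched on both strands. The first 5 were taken by rank, as the leading member of each class list and the leading broad member. The last 3 were chosen after the motif shares had been seen, to show a match to RFX, PU.1 and CTCF.
neuron-like (chr8:9398133-9398432, intron of Fam155a): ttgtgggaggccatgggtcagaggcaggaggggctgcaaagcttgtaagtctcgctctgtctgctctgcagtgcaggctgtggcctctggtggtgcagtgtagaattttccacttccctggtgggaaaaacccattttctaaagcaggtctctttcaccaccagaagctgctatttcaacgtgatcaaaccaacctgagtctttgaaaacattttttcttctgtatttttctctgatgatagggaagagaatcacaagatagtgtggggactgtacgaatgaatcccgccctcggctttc
oligodendrocyte-like (chr2:10658374-10658673, intergenic, nearest to Gm13261): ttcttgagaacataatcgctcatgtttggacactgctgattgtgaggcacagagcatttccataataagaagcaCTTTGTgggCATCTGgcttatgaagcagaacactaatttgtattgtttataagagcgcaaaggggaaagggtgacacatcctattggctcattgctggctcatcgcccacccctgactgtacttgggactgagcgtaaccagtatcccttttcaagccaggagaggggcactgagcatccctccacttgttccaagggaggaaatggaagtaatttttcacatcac
astrocyte-like (chr15:8781320-8781619, intergenic, nearest to Slc1a3): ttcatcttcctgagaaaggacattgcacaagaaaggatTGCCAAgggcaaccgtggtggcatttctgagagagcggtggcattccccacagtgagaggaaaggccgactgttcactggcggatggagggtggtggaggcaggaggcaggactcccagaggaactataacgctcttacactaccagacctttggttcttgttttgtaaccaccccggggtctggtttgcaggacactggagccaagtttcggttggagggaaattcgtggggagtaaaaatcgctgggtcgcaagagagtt
immune-like (chr9:123953611-123953910, intergenic, nearest to Ccr1): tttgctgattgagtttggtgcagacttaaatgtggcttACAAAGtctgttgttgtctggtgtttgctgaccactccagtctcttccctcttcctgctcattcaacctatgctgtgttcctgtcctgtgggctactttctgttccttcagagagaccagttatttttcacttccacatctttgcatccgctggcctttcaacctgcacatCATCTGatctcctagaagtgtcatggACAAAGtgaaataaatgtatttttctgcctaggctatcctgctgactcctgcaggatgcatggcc
broad (chr8:20122209-20122508, intergenic, nearest to Gm31371): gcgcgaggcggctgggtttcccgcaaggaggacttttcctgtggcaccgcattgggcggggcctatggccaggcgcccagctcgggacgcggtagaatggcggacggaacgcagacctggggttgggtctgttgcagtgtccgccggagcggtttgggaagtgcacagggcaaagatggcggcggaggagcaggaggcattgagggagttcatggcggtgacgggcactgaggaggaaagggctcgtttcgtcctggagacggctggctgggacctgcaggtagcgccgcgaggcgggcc
neuron-like with RFX (chr6:17875961-17876260, intron of St7): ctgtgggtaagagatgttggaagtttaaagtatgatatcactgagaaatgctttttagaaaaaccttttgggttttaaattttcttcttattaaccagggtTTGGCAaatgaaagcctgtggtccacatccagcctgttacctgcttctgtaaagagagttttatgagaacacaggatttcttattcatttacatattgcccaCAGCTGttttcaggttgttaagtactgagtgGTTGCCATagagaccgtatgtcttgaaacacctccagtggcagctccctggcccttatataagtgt
immune-like with PU.1 (chr2:160276094-160276393, intergenic, nearest to Gm826): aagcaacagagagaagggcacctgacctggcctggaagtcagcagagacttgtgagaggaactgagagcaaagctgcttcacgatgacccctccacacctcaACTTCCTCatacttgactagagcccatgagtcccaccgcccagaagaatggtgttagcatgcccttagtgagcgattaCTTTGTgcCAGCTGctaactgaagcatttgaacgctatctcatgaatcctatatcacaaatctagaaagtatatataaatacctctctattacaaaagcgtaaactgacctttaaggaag
neither with CTCF (chr1:86440432-86440731, intergenic, nearest to Tex44): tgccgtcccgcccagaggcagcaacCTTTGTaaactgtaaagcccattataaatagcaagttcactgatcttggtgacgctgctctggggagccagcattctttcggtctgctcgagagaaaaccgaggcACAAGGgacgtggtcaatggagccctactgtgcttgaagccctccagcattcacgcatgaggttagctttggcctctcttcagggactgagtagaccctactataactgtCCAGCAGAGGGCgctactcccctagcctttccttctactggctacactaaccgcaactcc
In the oligodendrocyte-like window the capitals mark SOX (ACAANG, here on the - strand) and an E-box (CAGATG), and in the astrocyte-like window they mark NFI (TTGGCA, on the - strand). The immune-like window from the Ccr1 locus holds 2 SOX matches and an E-box but no PU.1 match (GAGGAAGT), whereas the window nearest to Gm826 holds PU.1 on the - strand. The RFX match of the St7 window reads GTTGCCAT. The first neuron-like window and the broad window held none of the motifs searched, which says only that these letters are not in these 300 bases. The central 100 bases of each window occur once on the 19 autosomes.

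As regions, members were of ordinary width, with a median of 884 bp (301 to 1871 bp). Their median overlap with a peak of Foxr2 alone was 841 bp in replicate 1 and 838 bp in replicate 2, and 98.0% were matched 1 to 1 to a peak of replicate 1. Peaks that barely touched were few: 210 members overlapped the peaks of either library by under 100 bp. Of the midpoints, 45.4% lay in an intron of a protein-coding gene, 45.1% between genes, 5.96% in an exon and 3.54% in an intron of another gene. By contrast, 32.8% of the 30373 autosomal peaks shared by all 3 libraries within 10 kb of a gene start had an exonic midpoint. Members were shallower than those nearer peaks, with a median of 379 counts against 782 in the kept nuclei of Foxr2 p53LOF. Members held 17.9% of the autosomal peak counts of that library, and the median member had a count in 2.31% of its nuclei.

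Nuclei were put into classes from their RNA, so the ATAC counts played no part in forming the classes. After filters, 8413 and 8327 nuclei of the libraries with counts remained, and 140 barcode sequences occurred in both libraries. The 4 classes with at least 100 nuclei in both libraries were neuron-like (2265 and 4246 nuclei, in the order Foxr2 p53LOF and Foxr2 alone), oligodendrocyte-like (1526 and 3024), astrocyte-like (1159 and 434) and immune-like (1716 and 425). They rest on different clusters in each library, which were clusters 2, 15 and 18 against 1, 7, 9, 10 and 14 for neuron-like, 3 against 0 for oligodendrocyte-like and 4 and 8 against 12 for immune-like nuclei. Astrocyte-like nuclei of Foxr2 p53LOF were cluster 5, which expressed 8 of 8 astrocyte markers but was led by Egfr, Rfx4 and Ptprz1 and held none of the markers among its 10 leading genes, whereas those of Foxr2 alone were cluster 11. These 2 clusters are therefore named by number where the libraries are compared. RNA levels are given as UMI CPM, the UMIs of a gene scaled to 1000000 UMIs of the class. In Foxr2 p53LOF, Foxr2 RNA stood at 75.8 UMI CPM in cluster 5, 11.8 in neuron-like, 28.0 in oligodendrocyte-like and 28.0 in immune-like nuclei. Outside the 4 classes it stood at 74.5 in the 1125 nuclei like oligodendrocyte precursors or committed precursors. The 622 nuclei of that library left unnamed had 139.5. The level in cluster 11 of Foxr2 alone was 18.6 UMI CPM, and its other 3 classes had 0 to 6.35. How far the classes hold transduced cells was not tested.

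A member was called led by a class when its level, the ATAC counts of that class scaled to 1000000 autosomal peak counts of the class (ATAC CPM), was at least 2-fold above the next class, with at least 50 counts in the leading class. Every member was kept, and 1102 members of Foxr2 p53LOF and 188 of Foxr2 alone had under 50 counts in every class and so were not callable. In Foxr2 p53LOF, 11770 of the 25519 members (46.1%) were led by 1 class, where 43.4 percent of all autosomal peaks were. In Foxr2 alone the count was 12032 (47.1%), where 55.5 percent of that library's own autosomal peaks were, a set that also holds peaks called in that library only. Class-led members were thus about as common as in the background of Foxr2 p53LOF and less common than in that of Foxr2 alone. Both backgrounds hold peaks that were not called in all 3 libraries. Among peaks called in all 3 libraries, those within 10 kb of a gene start were led less often, in 30.2% and 32.4%, and those within 1 kb in 25.2% and 27.7%.

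**Figure D1:**
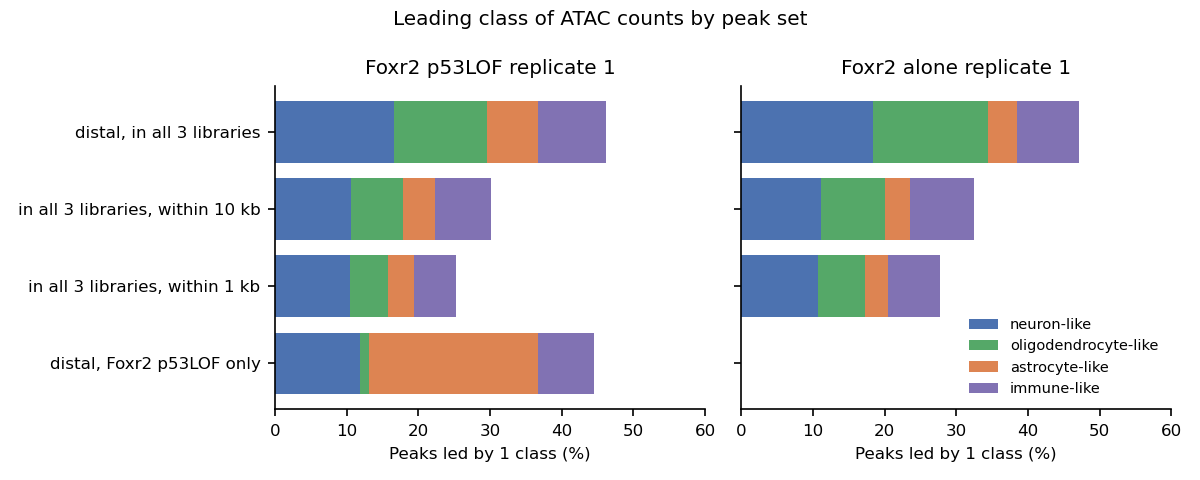
Share of peaks led by each class of nuclei (x axis, percent of the peaks of a set, stacked by class) for 4 sets of peaks in Foxr2 p53LOF replicate 1 (left) and 3 sets in Foxr2 alone replicate 1 (right). Members reach 46.1% and 47.1%, and shared peaks within 1 kb of a gene start 25.2% and 27.7%.

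The gap to the nearer peaks was widest in peaks of high count. Among peaks with 100 to 200 counts in Foxr2 p53LOF, 47.6% of members and 43.1% of shared peaks within 10 kb were led. The shares were 49.0% and 47.8% at 200 to 400 counts and 46.2% and 43.9% at 400 to 800. They parted more at 800 to 1600 counts (42.6% and 33.2%) and most at 1600 to 3200 counts (22.5% of 506 members and 5.52% of 5239 nearer peaks). With the minimum set as a level rather than a count, members and nearer peaks were led in 19.2% and 17.4%.

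Neuron-like nuclei led 4237 members in Foxr2 p53LOF (16.6%) and 4686 in Foxr2 alone (18.4%), where they led 13.5 percent of all autosomal peaks of the former and 41.5 percent of those of the latter. Oligodendrocyte-like nuclei led 3322 (13.0%) and 4090 (16.0%), a larger share than the 6.70 and 7.12 percent of all autosomal peaks. Immune-like nuclei led 2414 (9.46%) and 2218 (8.69%), below the background of 11.4 percent in Foxr2 p53LOF and above that of 4.07 percent in Foxr2 alone. Cluster 5 led 1797 members in Foxr2 p53LOF (7.04%, where it led 11.9 percent of all autosomal peaks) and cluster 11 led 1038 in Foxr2 alone (4.07%, where it led 2.76 percent). These backgrounds also hold peaks not shared by the 3 libraries. Of shared peaks within 10 kb of a gene start, neuron-like nuclei led 10.6% and 11.1% and oligodendrocyte-like nuclei 7.31% and 9.05%. Immune-like nuclei led 7.89% and 8.896% of them, so the 8.69% of members in Foxr2 alone was not above these nearer peaks. Clusters 5 and 11 led smaller shares of the nearer peaks than of members. The order of the classes depends on the fold asked for. At 4-fold, neuron-like nuclei led 1469 members of Foxr2 p53LOF, oligodendrocyte-like nuclei 1660 and immune-like nuclei 1684, and in Foxr2 alone the counts were 1884, 2406 and 1821. The leads were longest in immune-like nuclei: their median ratio to the next class was 6.88 in Foxr2 p53LOF and 14.8 in Foxr2 alone, against 3.17 and 3.48 for members led by neuron-like nuclei. The minimum of 50 counts is 16.7 ATAC CPM for the immune-like nuclei of Foxr2 alone and 0.856 for its neuron-like nuclei, so immune-led members had to be high to be called. With 16.7 ATAC CPM asked of every class the medians were 9.66 and 14.8 for 1574 and 2218 immune-led members, against 3.43 and 4.11 for 600 and 834 neuron-led ones. A lead of at least 8-fold was held by 1070 immune-led and 578 neuron-led members of Foxr2 p53LOF, and by 1458 and 423 of Foxr2 alone. The median member had 4 counts in the immune-like nuclei of Foxr2 alone and 234 in its neuron-like nuclei, so the levels of the former are the least precise.

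Distal peaks called in Foxr2 p53LOF only, 17870 in number, were led by 1 class in a similar share (44.5%) but by other classes. Cluster 5 led 23.7% of them against 7.04% of members, and oligodendrocyte-like nuclei 1.19% against 13.0%. Those peaks were also shallower, with a median of 173 counts. Members had to be called in both Foxr2 alone libraries and these peaks in neither, so the rule itself bears on which classes lead each set. The lists below therefore describe regions called in all 3 libraries, not all distal peaks.

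In all, 7009 members (27.5%) were led by the same class in both libraries, where 22.7 percent of all autosomal peaks shared by the 3 libraries were. They were 2645 oligodendrocyte-led, 2132 neuron-led and 1802 immune-led members, and 430 led by cluster 5 in one library and cluster 11 in the other. This make-up depends on the minimum. With 1 common level in place of 50 counts there were 178 neuron-led, 1253 oligodendrocyte-led and 1394 immune-led members, and with at least 1000 genes and 1000 peak counts per nucleus there were 2011, 1836 and 389. For 6112 of the 7009 the counting intervals of the leading class lay above those of all other classes in both libraries, a check added after the data were seen. Of the members led by oligodendrocyte-like nuclei in Foxr2 p53LOF, 79.6% were led by them in Foxr2 alone, and the shares were 74.6% for immune-like and 50.3% for neuron-like nuclei. Shared peaks within 10 kb of a gene start had similar shares, at 77.5%, 77.1% and 53.5%. For cluster 5 only 23.9% were led by cluster 11 (28.4% of the nearer peaks). A further 434 members led by cluster 5 (24.2%) were led by neuron-like nuclei in Foxr2 alone, against 229 (17.3%) of the nearer peaks led by cluster 5. These 434 made up most of the 682 members led by different classes in the 2 libraries. No class led 9408 of the 25519 members in either library, against 17421 of the 30373 shared peaks within 10 kb.

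Oligodendrocyte precursor-like and committed precursor-like nuclei, with 1125 nuclei in Foxr2 p53LOF and 166 in Foxr2 alone, were left out of the 4 classes. Taken as a further class in Foxr2 p53LOF, they led 400 members and lowered the number led by any class to 9391. Cluster 5 kept 820 of its 1797 members, oligodendrocyte-like nuclei 2320 of 3322, neuron-like nuclei 3547 of 4237 and immune-like nuclei 2304 of 2414. The leads of cluster 5 were thus the ones most often shared with the precursor-like nuclei.

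The most class-bound members by the fixed rule illustrate these groups. The first neuron-led member (chr8:9398039-9398527, in an intron of Fam155a, which encodes a subunit of a sodium leak channel) had 226 counts in neuron-like nuclei of Foxr2 p53LOF, or 11.9 ATAC CPM [9.80, 14.3], and 0 counts in each of the other 3 classes. In Foxr2 alone it had 325 counts in neuron-like nuclei, 5.57 ATAC CPM [4.74, 6.49], and 1, 0 and 0 counts in oligodendrocyte-like, astrocyte-like and immune-like nuclei. Fam155a RNA was also highest in neuron-like nuclei in both libraries, at 2675 and 1481 UMI CPM. The neuron-like and other levels do not overlap in either library, although 0 counts still allow 2.46 ATAC CPM in the immune-like nuclei of Foxr2 alone.

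The other 4 neuron-led members by rank were nearest to Gm12911, Has3, Gm10466 and Tnfsf11. The one nearest to Has3 (chr8:106839075-106839983, in an intron of Tango6) had 417 neuron-like counts in Foxr2 p53LOF and 1111 in Foxr2 alone, or 21.9 [19.1, 25.1] and 19.02 [17.5, 20.7] ATAC CPM, and at most 1.09 ATAC CPM in any other class. Has3, a hyaluronan synthase, was hardly read in RNA, at 0.79 and 2.15 UMI CPM in neuron-like nuclei. The RNA of Gm12911 and Tnfsf11 was likewise at or near 0 in neuron-like nuclei.

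Among oligodendrocyte-led members the first (chr2:10658068-10658980, 284.0 kb from Gm13261) had 330 counts in oligodendrocyte-like nuclei of Foxr2 p53LOF, 41.3 ATAC CPM [35.2, 48.1], against 1.33 to 1.91 ATAC CPM in the other classes. In Foxr2 alone it had 638 counts, 31.1 ATAC CPM [27.8, 34.7], and at most 1.33 ATAC CPM elsewhere. The second lies in an intron of Grm7, a glutamate receptor gene, with 369 and 575 oligodendrocyte-like counts. Grm7 RNA was highest in oligodendrocyte-like nuclei of Foxr2 p53LOF (1927 UMI CPM, neuron-like 1438) but in neuron-like nuclei of Foxr2 alone (1980, oligodendrocyte-like 341). The fifth (chr6:126669175-126670047, 24.4 kb from Kcna1, a potassium channel gene) had 321 and 1191 oligodendrocyte-like counts, 40.1 [34.2, 46.9] and 58.0 [53.4, 62.8] ATAC CPM. Kcna1 RNA was led by the same class, with 300 UMI CPM in oligodendrocyte-like against 44.0 in neuron-like nuclei of Foxr2 p53LOF, and 848 against 123 in Foxr2 alone.

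The leading member of clusters 5 and 11 (chr15:8781025-8781914) lies 70.3 kb from Slc1a3, the glutamate transporter GLAST of astroglia. It had 594 counts in cluster 5, 46.3 ATAC CPM [41.2, 51.9], and 268 in cluster 11, 72.7 ATAC CPM [60.9, 86.1]. In the other classes it stood at 0.749 to 1.501 ATAC CPM in Foxr2 p53LOF and at 0 to 0.411 in Foxr2 alone. Slc1a3 RNA was led by the same clusters, at 1521 UMI CPM in cluster 5 and 4185 in cluster 11. Further members of this list lie 13.6 kb from Arhgef4, in an intron of Stox2 and 54.9 kb from Cyp2j5.

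The 5 immune-led members named by rank stood 64.5 to 86.8-fold above the next class in Foxr2 p53LOF and 73.0 to 148.5-fold in Foxr2 alone, with a next class below 3 counts set to 3. The first (chr9:123953300-123954222) lies 14.5 kb and the fourth (chr9:123931581-123932502) 36.2 kb from Ccr1, a chemokine receptor gene. The first had 363 immune-like counts in Foxr2 p53LOF, 30.2 ATAC CPM [26.0, 34.9], and 3 to 6 counts in each other class. In Foxr2 alone it had 125 immune-like counts, 41.7 ATAC CPM [32.0, 53.4], and 0.308 ATAC CPM in neuron-like nuclei. The fourth stood at 79.6 [72.6, 87.0] and 66.0 [53.7, 80.4] ATAC CPM in immune-like nuclei, at most 1.16 elsewhere. Ccr1 RNA was immune-like in both libraries, but at 156 UMI CPM in Foxr2 p53LOF and 19.02 in Foxr2 alone, the latter from 11 UMIs. The immune-like nuclei also differed in kind, with Cd74 RNA at 1633 UMI CPM in Foxr2 p53LOF and 20.8 in Foxr2 alone. C1qa RNA stood at 766 and 3286. The third member, in an intron of Naip2, had 391 and 105 immune-like counts, and Naip2 RNA stood at 240 and 208 UMI CPM in immune-like nuclei and at most 1.72 elsewhere. Naip2 encodes an innate immune sensor.

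**Figure D2:**
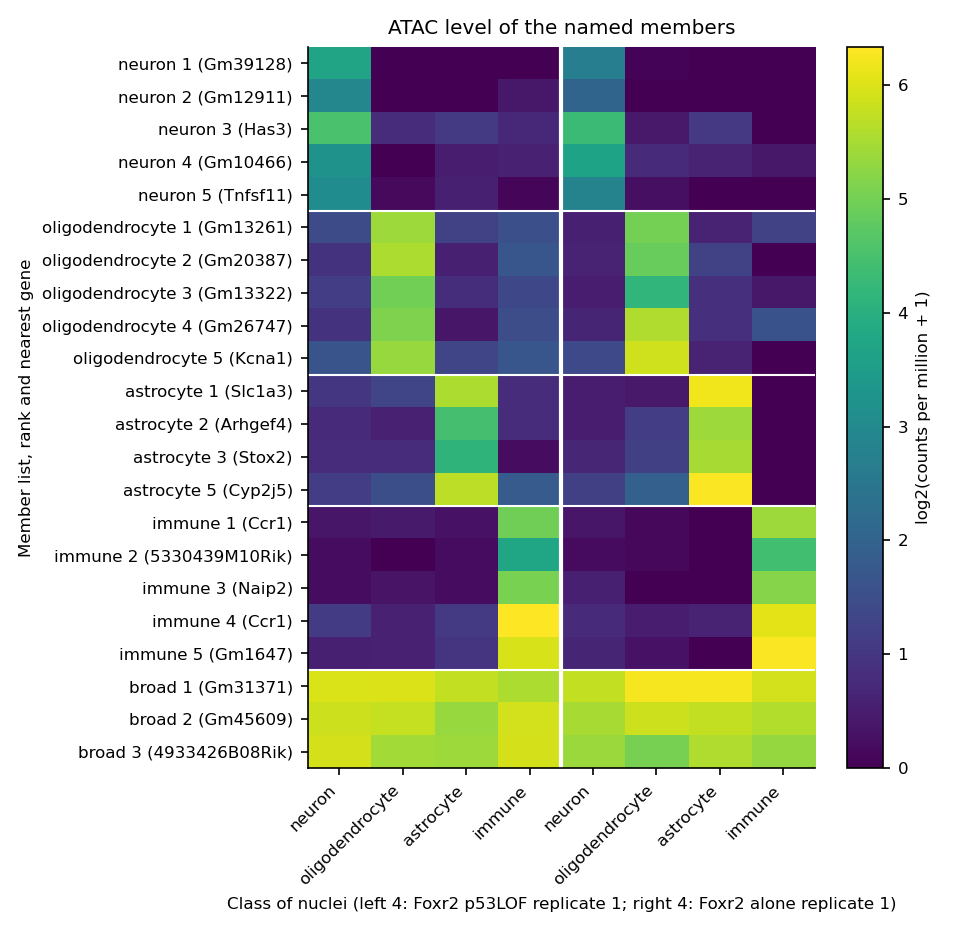
ATAC level of members named by rank (rows, with list, rank and nearest gene) in each class of nuclei (columns, Foxr2 p53LOF replicate 1 left of the line, Foxr2 alone replicate 1 right), as log2 of ATAC CPM plus 1. Class lists stand out in their own column in both libraries, and the 3 broad members are even, at 39.9 to 62.4 ATAC CPM in Foxr2 p53LOF.

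As called here, 36 members (0.141%) had their highest class at most 1.5-fold above the lowest in both libraries, against 1025 (3.37%) of the shared peaks within 10 kb and 985 (4.99%) of those within 1 kb. Depth limits this call, since members had a median of 379 counts in Foxr2 p53LOF, against 782 and 1306 for the nearer peaks, and few counts in the immune-like nuclei of Foxr2 alone. At 200 to 400 counts the broad share was 0.0408% of members and 0.0338% of shared peaks within 10 kb, so the sets were not told apart there. At 800 to 1600 counts it was 0.251% (7 of 2792) and 1.41% (80 of 5680), and at 1600 to 3200 counts 1.58% (8 of 506) and 10.7% (561 of 5239), where the median immune-like counts of Foxr2 alone still differed, at 59 and 106. The broad member with the most counts (chr8:20121930-20122788, 218.5 kb from Gm31371) stood at 61.6 ATAC CPM in neuron-like, 62.4 in oligodendrocyte-like, 52.8 in cluster 5 and 46.0 in immune-like nuclei of Foxr2 p53LOF. Its window had a GC content of 67.3%, against a median of 49.7% for members and 56.7% for shared peaks within 10 kb. Distances were counted only to gene starts in the deposited feature list, so it may not stand for distal regions in general. The second (chr2:155050401-155051325) lies in an exon of a, the nonagouti gene, and ranged from 39.9 to 58.5 ATAC CPM, and the third (chr17:6827560-6828464) ranged from 41.3 to 59.7. The member shown with a CTCF match was almost even in Foxr2 p53LOF, at 33.5, 35.9, 34.2 and 34.3 ATAC CPM, and stood at 16.7 to 36.9 in Foxr2 alone.

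Members lay a median of 31.4 kb from the nearest gene start, from 10001 bp to 1021.8 kb, and 3115 of them (12.2%) lay over 100 kb away. The share led by 1 class in Foxr2 p53LOF was larger at greater distance, from 43.0% at 10 to 20 kb through 45.1% and 48.0% to 53.9% over 100 kb, and in Foxr2 alone it went from 44.4% to 53.9%. The median counts of the members were lower along the same bins, from 426 to 295 in Foxr2 p53LOF, and the part of depth in the trend was not tested. At the limit of the rule, the 937 shared peaks 9 to 10 kb from a gene start were led in 42.8% and 41.1%, and the 983 members 10 to 11 kb away in 40.6% and 43.7%.

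**Figure D3:**
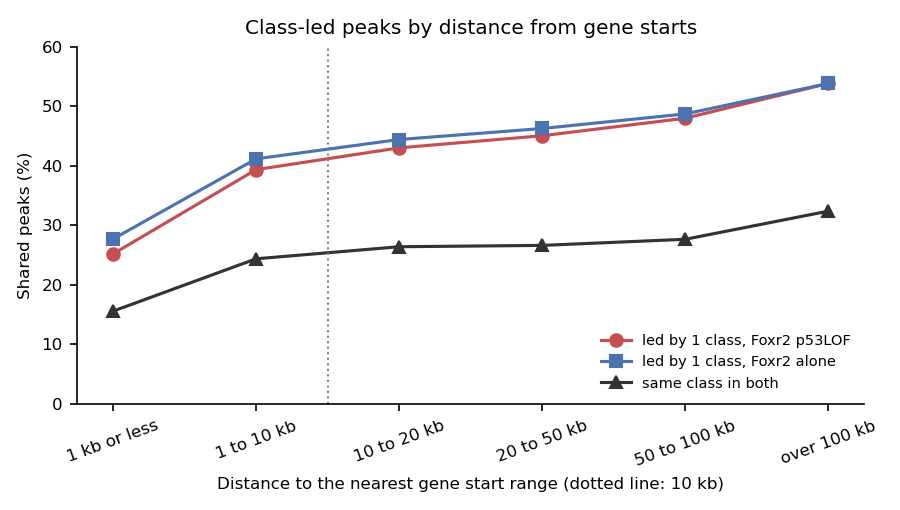
Share of peaks found in all 3 libraries (y axis, percent) that were led by 1 class in Foxr2 p53LOF (circles), in Foxr2 alone (squares) or by the same class in both (triangles), by distance to the nearest gene start range (x axis). The 4 bins right of the dotted line at 10 kb hold the members, whose share led in both by the same class goes from 26.4% to 32.4%.

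Members near each other were mostly led by the same class. Of the pairs of adjacent members at most 20 kb apart that were both led, 1867 of 2574 (72.5%) shared the class in Foxr2 p53LOF and 2113 of 2955 (71.5%) in Foxr2 alone. Among all pairs of led members, near or far, 27.5% and 30.9% shared the class. Of the adjacent pairs with at least 1 member led by cluster 5 in Foxr2 p53LOF or cluster 11 in Foxr2 alone, 31.0% and 23.1% shared it, against 54.7% to 62.6% for the other classes. A share of this kind can be lower for a class that leads fewer members, and clusters 5 and 11 led the fewest (1797 and 1038). The number led did not order the shares, however. Immune-like nuclei led fewer members than neuron-like nuclei but had 62.6% and 60.4%, against 59.7% and 54.7%. What sets the shares was not tested, and the classes are not ranked by them. Adjacent pairs can be pieces of 1 open region, so neighbouring members are not independent.

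The members had 10924 different nearest genes, and 67.3% of members were nearest to a protein-coding gene. Of these genes, 4912 were nearest to 1 member and 121 to at least 10. Tns3, which encodes a focal adhesion protein, was nearest to the most, 22 members lying 24.1 to 378.8 kb away, followed by Chd7, A330074K22Rik and 9430078K24Rik with 21 each. Chd7 encodes a chromatin remodeller, and 5 of its members were led in both libraries by oligodendrocyte-like and 4 by immune-like nuclei. Dock4 had 17 members, Gap43, Zdhhc14 and Pitpnb 16, and Gm10532 and Agpat4 15. Gap43, a gene of axon growth, had 2 neuron-led members and none led by another class in both libraries.

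Genes with many members of 1 class were of mixed kinds. Among neuron-led members, Myo5c (6 of its 9 members), Gmpr (5 of 12), Rgs7bp (5 of 6), Gm10309 (5 of 10) and Ptprn2 (5 of 8) came first. Ptprn2, a gene of dense-core vesicles, stood at 802 and 626 UMI CPM in neuron-like nuclei and at most 147 elsewhere, and Rgs7bp, a regulator of G protein signalling, at 209 and 335. Gmpr RNA was instead not led by any class. Myo5c RNA was led by neuron-like nuclei in both libraries but was low there, at 3.04 and 16.0 UMI CPM.

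Oligodendrocyte-led members gathered near Grb14, with 11 of its 12 members, 4732490B19Rik (9 of 12), Elmo1 (8 of 14), Gm20544 (8 of 13) and Gm16168 (8 of 10). Grb14, an adaptor of insulin receptor signalling, had RNA at 346 and 274 UMI CPM in oligodendrocyte-like nuclei and at most 49.3 in any other class. Elmo1, which acts in cell engulfment and migration, was read at 1615 UMI CPM in oligodendrocyte-like nuclei of Foxr2 p53LOF and also at 1521 in its immune-like nuclei, and at 2558 and 1121 in those of Foxr2 alone. The RNA of 4732490B19Rik was at most 0.254 UMI CPM.

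Immune-led members were nearest to Gm826 (9 of 11), Gm32914 (8 of 13), 9430078K24Rik (8 of 21), Dock4 (7 of 17) and 1700011L03Rik (7 of 8). Dock4, an activator of small GTPases, was also led by immune-like nuclei in RNA, at 1651 and 1171 UMI CPM against at most 519 elsewhere. The RNA of Gm32914, 9430078K24Rik and 1700011L03Rik stayed below 0.3 UMI CPM in every class. Cluster 5 and cluster 11 both led 3 members nearest to Gm47424, 3 of the 15 nearest to Slc1a3, and 2 each nearest to Foxo6, Myo10 and Gm47921. Of these genes, Slc1a3 and Myo10 were also led in RNA by both clusters.

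**Figure D4:**
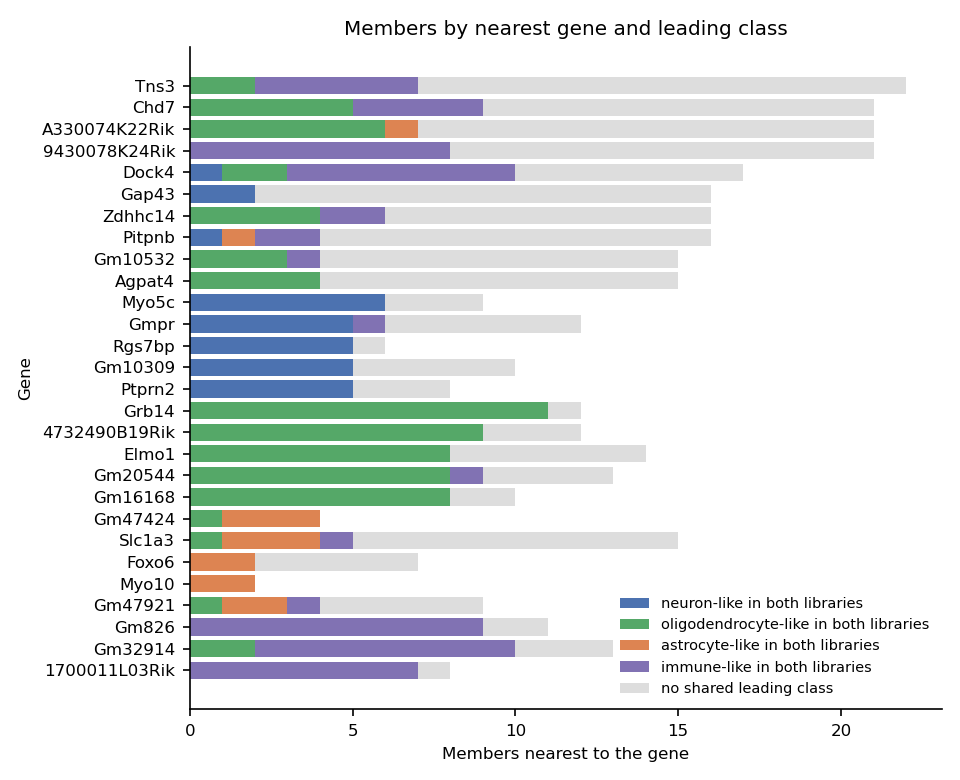
Members by nearest gene for the 10 genes nearest to the most members and the 5 leading genes of each class list (rows, genes on 2 lists drawn once), with the number of members on the x axis and colours for the class that led a member in both libraries. Grb14 has 11 of 12 members in the oligodendrocyte-like colour, and grey marks members without a shared leading class.

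The nearest gene was led in RNA by the same class as the member for 1379 of the 7009 members led in both libraries (19.7%) in Foxr2 p53LOF and for 1225 (17.5%) in Foxr2 alone. By class, the Foxr2 p53LOF shares were 28.1% for immune-led, 20.8% for neuron-led and 13.7% for oligodendrocyte-led members, against 7.52%, 9.37% and 4.10% of all members whose nearest gene was led by that class. For the 430 members led by clusters 5 and 11 it was 15.3% against 5.22%, while 16.3% of them had a nearest gene led by another class. In Foxr2 alone, 10.5% of them had a nearest gene led by cluster 11 and 10.9% one led by another class. RNA formed the classes, so these RNA levels are a description. Most nearest genes were led by no class, and for shared peaks within 10 kb the share was higher, at 40.8% and 31.6%. The counts of 1379 and 1225 members depend on the gene taken. They were 2233 and 2236 with the nearest gene of at least 50 UMIs in the class, and 865 and 752 with the second nearest gene. For members inside a protein-coding gene, that gene was led by the same class in RNA for 39.0% of neuron-led, 21.1% of oligodendrocyte-led and 39.6% of immune-led members of Foxr2 p53LOF, against 15.2%, 7.03% and 10.8% of all members inside such a gene. In Foxr2 p53LOF the share for the nearest gene was 22.4% of members 10 to 20 kb away and 16.8% of those over 100 kb away, and over the same bins of Foxr2 alone it stayed between 16.8% and 18.4%.

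Members nearest to listed transcription factors were few, and are set beside the make-up of all 7009 members led by the same class in both libraries, of which 30.4% were neuron-led, 37.7% oligodendrocyte-led, 25.7% immune-led and 6.13% led by clusters 5 and 11. The 18 immune factors were nearest to 46 members through 12 genes, and of the 16 led by 1 class in both libraries 13 (81.2%) were immune-led. Sall1, a factor of microglia, had 14 of these members, 4 of them immune-led, and the single member nearest to Spi1, which encodes PU.1, was immune-led too. The 14 oligodendroglial factors were nearest to 30 members, of which 11 were led in both libraries, 5 (45.5%) by oligodendrocyte-like and 4 by immune-like nuclei, the former share being near the 37.7% of all such members. Those 5 lie nearest to Nkx6-2, St18, Olig1, Olig2 and Zfp536, and the 4 immune-led ones nearest to Tcf7l2. Taken by library, 5 of the 30 were oligodendrocyte-led, 6 led by cluster 5 and 4 immune-led in Foxr2 p53LOF. In Foxr2 alone 13 were oligodendrocyte-led, 3 led by cluster 11 and 4 immune-led.

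The 30 neuronal factors were nearest to 52 members through 19 genes, and of the 13 led in both libraries 2 (15.4%) were neuron-led, nearest to Foxp1 and Tshz2, while 8 were immune-led, nearest to Zfhx3 (4), Dlx2 (3) and Mef2c (1). By library the picture differed. In Foxr2 p53LOF 3 of the 52 were neuron-led, 2 oligodendrocyte-led, 11 led by cluster 5 and 10 immune-led. In Foxr2 alone 13 were neuron-led, 5 oligodendrocyte-led, 2 led by cluster 11 and 9 immune-led. Zfhx3 and Mef2c were also read in RNA in immune-like nuclei, at 719 and 591 UMI CPM in Foxr2 p53LOF and 702 and 699 in Foxr2 alone. Zfhx3 RNA was led by no class in either library, with 715 in neuron-like nuclei of Foxr2 p53LOF and 801 in cluster 11. Mef2c RNA was led by immune-like nuclei in Foxr2 p53LOF but by no class in Foxr2 alone, where neuron-like nuclei had 480. Dlx2 RNA stood at 0.311 UMI CPM in immune-like nuclei of Foxr2 p53LOF and at 0 in those of Foxr2 alone. The 16 astroglial factors were nearest to 29 members, of which 7 were led in both libraries, 5 by oligodendrocyte-like nuclei and 2 (28.6%) by clusters 5 and 11. The 5 lie nearest to Nfia, Nfib and Nfix, whose RNA in Foxr2 p53LOF stood at 2435, 1673 and 210 UMI CPM in cluster 5 and at 758, 343 and 198 in oligodendrocyte-like nuclei. In Foxr2 alone the levels were 1592, 459 and 82.2 in cluster 11 and 817, 273 and 158 in oligodendrocyte-like nuclei, so that Nfix was higher in the latter. Nearest in distance is not a statement that a region acts on the gene.

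The motifs in the 300 bases around the midpoint differed between the class lists. SOX (ACAANG) was found in 75.9% of members led by oligodendrocyte-like nuclei in both libraries, against 54.0% of all members and 50.8% of all autosomal peaks. NFI (TTGGCA) was found in 45.6% of members led by clusters 5 and 11, against 20.5% and 19.4%. PU.1/ETS (GAGGAAGT) was found in 14.9% of immune-led members, against 3.15% and 3.53%, and RFX (GTTGCCAT) in 5.21% of neuron-led members, against 2.06% and 1.83%. SOX10, NFI factors and PU.1 are known for a part in these lineages and RFX factors for genes of cilia, but a match is not a bound site.

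The CTCF core consensus followed the reverse pattern. It was found in 17.3% of the 9408 members led in neither library, in 10.4% of all members and in 4.63% of all autosomal peaks. Among class-led members it was found in 7.79% of neuron-led, 1.93% of oligodendrocyte-led, 1.28% of immune-led and 0.233% of those led by clusters 5 and 11. Distal peaks of Foxr2 p53LOF only held it in 0.464%. Among the lists compared, CTCF matches were most frequent in members without a leading class.

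Some of the other motifs searched also differed in share between the lists. The E-box CAGATG differed little, at 26.4% to 30.5% over the class lists, against 27.5% of all members and 24.7% of all autosomal peaks. ETS (CCGGAAG) was found in 2.28% of members and 4.06% of all autosomal peaks, and CRE (TGACGTCA) in 0.627% and 0.954%. The E-box CAGCTG was found in 35.9% of oligodendrocyte-led members and 33.0% of those led by clusters 5 and 11, against 26.9% of all members and 25.3% of all autosomal peaks. The homeodomain motif TAATTA was found in 10.5% of members led by clusters 5 and 11 and 2.94% of immune-led ones, against 6.16% and 5.30%, and the MEF2 motif in 6.38% of neuron-led members, against 4.61% and 4.02%. AP-1 (TGANTCA), the site of stress and growth responsive factors, was found in 17.4% of members, below the 20.98% of all autosomal peaks, in 21.3% of immune-led members, near that background, and in 35.3% of distal peaks of Foxr2 p53LOF only. Base composition differed little between the lists, with a median GC content of 49.7% for members, 48.7% for neuron-led ones and 52.7% for those led by clusters 5 and 11, against 56.7% for shared peaks within 10 kb of a gene start.

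**Figure D5:**
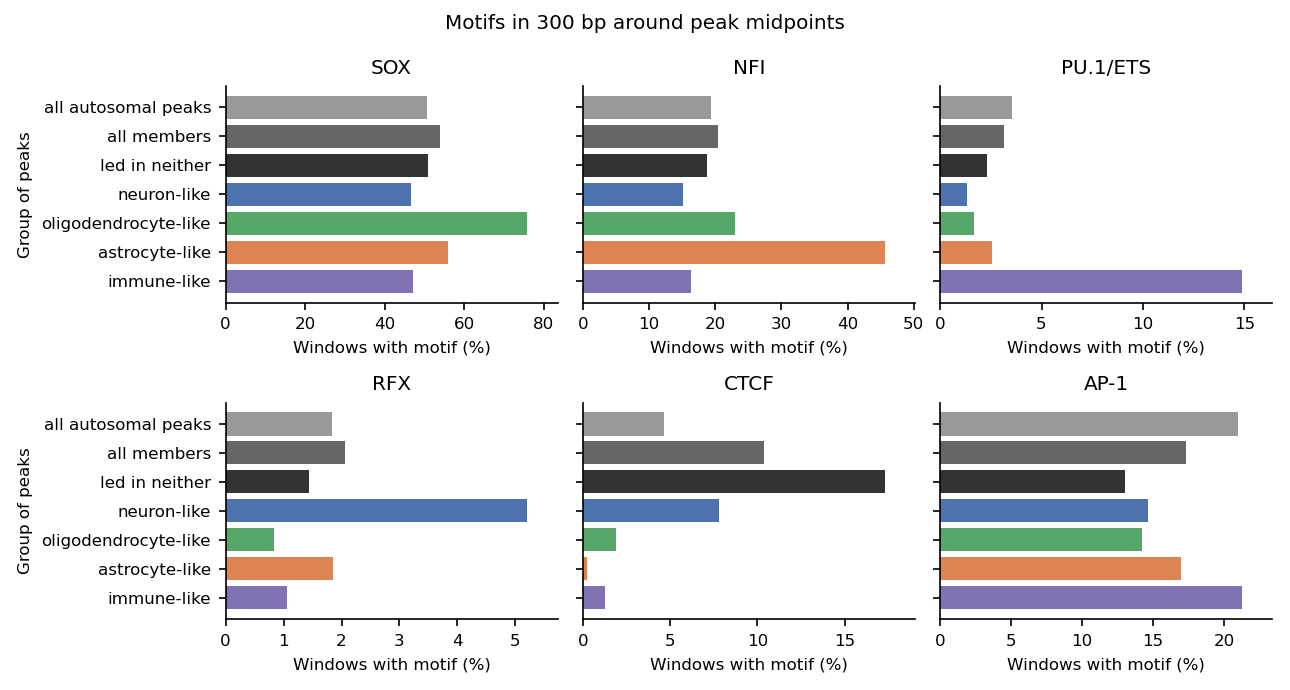
Share of 300-base windows around peak midpoints with a motif on either strand (x axis, percent, with its own scale per panel) for all autosomal peaks, all members, members led in neither library and members led by each class in both libraries. SOX peaks in oligodendrocyte-led members at 75.9%, NFI in those led by clusters 5 and 11 at 45.6%, PU.1 in immune-led members at 14.9% and CTCF in members led in neither library at 17.3%.

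Within a class, the libraries were set side by side for neuron-like, oligodendrocyte-like and immune-like nuclei, over members with at least 50 counts in at least 1 library. In neuron-like nuclei, 5302 of 23486 members (22.6%) were at least 2-fold higher in Foxr2 p53LOF, where 19.6 percent of all shared autosomal peaks were, and 2576 (10.97%) at least 2-fold higher in Foxr2 alone, where 8.13 percent were. The median log2 ratio of Foxr2 p53LOF to Foxr2 alone was 0.44. When levels were scaled by counts near gene starts, the median was 0.09 and the calls were 2736 higher in Foxr2 p53LOF and 3682 higher in Foxr2 alone, so no direction is given. The neuron-like nuclei also differ in kind, since cluster 2 of Foxr2 p53LOF was led by genes such as Zfp804b and Slc17a6 and cluster 1 of Foxr2 alone by Penk and Ppp1r1b, and the part of this in the counts was not tested.

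In oligodendrocyte-like nuclei, 1518 of 14467 members (10.5%) were higher in Foxr2 p53LOF, where 7.41 percent of all shared autosomal peaks were, and 706 (4.88%) higher in Foxr2 alone, where 3.91 percent were. The median log2 ratio was 0.11, and Foxr2 p53LOF held more of the calls under every alternative, from 55.7% of them when each nucleus counted once per member to 79.3% with stricter minimums per nucleus. With each nucleus counted once, the median log2 ratio was 0.00048. All shared autosomal peaks leaned the same way, with 2746 higher in Foxr2 p53LOF and 1449 in Foxr2 alone, so the lean is not particular to members. In immune-like nuclei, 1854 of 8267 members (22.4%) were higher in Foxr2 p53LOF, where 15.0 percent were, and 1000 (12.1%) higher in Foxr2 alone, where 7.69 percent were. In these nuclei the 50 counts needed to enter are 4.16 ATAC CPM in Foxr2 p53LOF and 16.7 in Foxr2 alone. Members could thus enter more easily through Foxr2 p53LOF, which favours calls higher there. The share of calls higher in Foxr2 p53LOF was 65.0%, but it was 46.6% when each nucleus counted once, 48.2% with stricter minimums and 52.5% at a finer clustering, so here too no direction is given. Immune-like nuclei also differ in kind between the libraries, by the Cd74 and C1qa levels given above. The part of this in the counts was not tested. Of the 1802 members led by immune-like nuclei in both libraries, 467 (25.9%) were higher in Foxr2 alone and 4 in Foxr2 p53LOF, close to the 23.5% (856 of 3649) and 12 of all shared autosomal peaks led by them in both. Of the 2645 oligodendrocyte-led members 80 (3.02%) were higher in Foxr2 alone and 341 (12.9%) in Foxr2 p53LOF. These shares were close to the 2.89% and 11.2% of the 4366 shared autosomal peaks led by that class in both. Of the 2132 neuron-led members 268 (12.6%) and 265 (12.4%) were, against 9.99% and 12.8% of the 3852 such peaks. Since 50 counts are a higher level in the shallower immune-like class of Foxr2 alone, membership of the immune-led list favours higher levels in Foxr2 alone. For oligodendrocyte-like nuclei 50 counts are 6.25 ATAC CPM in Foxr2 p53LOF and 2.43 in Foxr2 alone, and for neuron-like nuclei 2.63 and 0.856. Membership of these 2 lists thus favours higher levels in Foxr2 p53LOF.

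Among members with at least 50 counts in both libraries, the member 17.4 kb from D730003I15Rik (chr1:191241917-191242788) had 324 neuron-like counts in Foxr2 p53LOF and 74 in Foxr2 alone, 17.0 against 1.27 ATAC CPM, a log2 ratio of 3.75 [3.23, 4.31]. In oligodendrocyte-like nuclei the same member stood at 7.50 and 8.81 ATAC CPM, close to each other. Next came members in introns of Zfhx3 (3.64 [3.13, 4.19]) and Fam189a2 (3.64 [3.06, 4.26]). Zfhx3 RNA was likewise higher in neuron-like nuclei of Foxr2 p53LOF, at 715 against 89.0 UMI CPM.

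In the other direction, the member in an intron of Fer (chr17:64045102-64046002) had 56 neuron-like counts in Foxr2 p53LOF and 2265 in Foxr2 alone, 2.95 against 38.8 ATAC CPM, a log2 ratio of -3.72 [-4.32, -3.18]. Fer RNA in neuron-like nuclei was close, at 171 and 154 UMI CPM. The member 38.9 kb from Lipg had a log2 ratio of -3.68 [-4.27, -3.15] and the one in an intron of Slit3, an axon guidance gene, -3.63 [-4.26, -3.06]. Slit3 RNA also stood lower in Foxr2 p53LOF, at 93.1 against 387 UMI CPM in neuron-like nuclei.

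In oligodendrocyte-like nuclei the members furthest towards Foxr2 p53LOF lie in an intron of Igf2bp2 (3.26 [2.69, 3.86]), in an intron of Pcnx (3.25 [2.62, 3.94]) and 47.7 kb from Hrh2 (3.21 [2.58, 3.88]). The first had 246 oligodendrocyte-like counts in Foxr2 p53LOF, 30.8 ATAC CPM, and 66 in Foxr2 alone, 3.21 ATAC CPM, and it was also high in cluster 5, at 21.2 ATAC CPM. Igf2bp2, which encodes an RNA-binding protein, was read at 11.5 UMI CPM in oligodendrocyte-like nuclei of Foxr2 p53LOF and 0.254 in those of Foxr2 alone, the latter from 1 UMI, and at 54.0 in cluster 5. Among the classes read it was highest in the precursor-like nuclei of Foxr2 p53LOF that were left out of the 4 classes, at 232 UMI CPM, where the member stood at 26.1 ATAC CPM, and it is a leading gene of the committed precursor-like cluster. Slc1a3, a marker of astrocytes, was read at 155 UMI CPM in the oligodendrocyte-like nuclei of this library against 1521 in cluster 5, and the part of RNA from other nuclei in such low levels was not tested. Towards Foxr2 alone, the member 10.4 kb from the Sgk3 start, in its intron, went from 6.50 to 46.7 ATAC CPM, a log2 ratio of -2.84 [-3.47, -2.28], and Sgk3 RNA from 204 to 1016 UMI CPM. Those nearest to 4933433H22Rik and Krtap20-2 had ratios of -2.30 [-2.89, -1.76] and -2.22 [-2.73, -1.76]. Each of these is a difference between a single pair of libraries.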

How the data were processed

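The deposited matrices hold raw counts per barcode (UMIs for genes, transposition events for peaks), made by the authors library by library with Cell Ranger ARC 2.0.0 against mm10 plus vector sequences, per the submitters' processing notes and the study's methods. Nuclei were kept by the study's limits on mitochondrial UMIs (at most 5%), genes and fragments in peaks (at least 400 of each) and by its upper limits on genes, UMIs and fragments in each library, with fragments as peak counts divided by 2, because 80.7% and 82.9% of nonzero values were even. Its limits on start site enrichment and nucleosome signal and its own doublet calls were not applied, so the nuclei are not the same set as the study's. Scrublet doublets were removed. RNA of both libraries was clustered together (scanpy 1.11.5, Leiden resolution 0.5, leidenalg 0.10.2), and clusters were named from fixed markers by thresholds set after the data were seen.

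ATAC counts were summed per class and scaled to 1000000 autosomal peak counts of that class. A member of Foxr2 p53LOF took the summed counts of the Foxr2 alone replicate 1 peaks that overlap it. A next class below 3 counts was set to the level of 3 counts. Intervals are exact Poisson intervals on fragments. Depth was 102529894 peak counts in Foxr2 p53LOF and 118436178 in Foxr2 alone, which sets the precision. Positions inside genes follow GENCODE M21. One ranked member is not reported here.

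The members, lists and rules were chosen with earlier results of these data known. Named members are the 5 per class led in both libraries with the largest smaller ratio, the 3 broad ones with the most counts, and the 3 largest differences in each direction in neuron-like and oligodendrocyte-like nuclei. Named genes are the 10 nearest to the most members and the 5 nearest to the most members of each class list.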

Additional observations from a re-analysis of the deposited data

How the results depend on the processing

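Of 112 alternatives, 70 left the value within 1.5 times the main one or, for a motif share, within its counting interval. Alternatives that left out the astrocyte-like classes, set the minimum as a level, used the gene that holds the member, floored every class at 3 counts or required separate counting intervals were chosen after seeing the data. Counts of 1 library per genotype were used, so neither a paired analysis nor a rerun without a replicate was possible.

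With a distance over 50 kb, 8094 members remained. At 4-fold above the next class, 5426 members were led in Foxr2 p53LOF, 6701 in Foxr2 alone and 3447 by the same class in both. With the minimum as a level these counts were 4897, 5779 and 3049, and 178 of the latter were neuron-led. Members led by the same class in both were 4644 with minimums of 1000 genes and 1000 peak counts and 11190 without the astrocyte-like classes. The nearest gene was led by the same class for 2233 members in Foxr2 p53LOF and 2236 in Foxr2 alone with genes of at least 50 UMIs, for 2262 and 2263 with genes highest at any fold, and for 865 and 752 with the second nearest gene.

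Between libraries at 4-fold, 814 of 23486 members were higher in Foxr2 p53LOF and 825 higher in Foxr2 alone in neuron-like nuclei. The counts were 284 and 78 of 14467 in oligodendrocyte-like and 932 and 104 of 8267 in immune-like nuclei. Among all shared autosomal peaks, which include the members, they were 1518 and 1309 of 52760, 525 and 176 of 37065, and 1907 and 184 of 27355. The lean within each glial or immune class is thus not particular to members. With 20 counts in 1 library, 3081 oligodendrocyte-like and 4604 immune-like members were higher in Foxr2 p53LOF. For immune-like nuclei a minimum of counts favours calls higher in Foxr2 p53LOF, as described above. Scaling by counts near gene starts left 2736 neuron-like members higher in Foxr2 p53LOF. Counting each nucleus once left 648 oligodendrocyte-like and 537 immune-like members higher in Foxr2 p53LOF and 616 immune-like members higher in Foxr2 alone. Stricter minimums per nucleus left 362 oligodendrocyte-like members higher in Foxr2 alone and 949 immune-like members higher in Foxr2 p53LOF, and Leiden resolution 1.0 left 961 of the latter.

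Motif shares follow the window by construction. Over the whole member and over 100 bases, SOX was in 94.9% and 41.8% of oligodendrocyte-led members (87.0% and 23.9% of all members, so the whole member tells them apart little), NFI in 66.3% and 17.4% of those led by the astrocyte-like classes (42.7% and 7.58%), PU.1 in 21.8% and 6.60% of immune-led members (7.09% and 1.16%), RFX in 7.74% and 2.39% of neuron-led members (3.78% and 0.811%) and CTCF in 18.3% and 10.4% of members led in neither library (11.1% and 5.91%). Among members led at least 4-fold, SOX was in 82.0% and RFX in 8.68%. The causes of the other moves were not tested, and depth limits the immune-like and astrocyte-like classes of Foxr2 alone most.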
